A study of Mus musculus with 2 samples.

Results

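The miR-181 family was followed in small RNA of ischemic mouse hindlimb muscle. Its members were chosen by precursor name and are the 6 hairpins mmu-mir-181a-1, mmu-mir-181b-1, mmu-mir-181a-2, mmu-mir-181b-2, mmu-mir-181c and mmu-mir-181d, out of 1187 precursors listed in each library. The hypercholesterolemic library (HC) came from ApoE-/- mice, which the series' design text describes as fed a high fat diet. The normocholesterolemic library (NC) came from C57Bl/6 mice of control genotype, with no diet stated in the labels. Loss of apolipoprotein E, a carrier protein for the clearance of lipoprotein remnants, raises plasma cholesterol. All mice had the femoral artery removed to make the limb ischemic, and muscle was taken 1 day later. Genotype and cholesterol state differed together between the libraries, and their parts, like that of any difference in diet, cannot be told apart. Each group held 1 library, so no test was run and there is no replicate check. The labels state neither the number of mice nor their age.

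miRNAs of this family are cut from paired hairpins into mature strands that guide the silencing of messenger RNAs through the seed, the bases near the 5′ end that pair with the target. In thymocytes, miR-181a tunes the sensitivity of the T cell receptor, and in differentiating myoblasts it represses the homeobox protein Hox-A11. In the vascular endothelium, miR-181b represses importin-α3 and so limits the nuclear import of NF-kB, a transcription factor of inflammation. The family is thus known from muscle, vessel wall and lymphocytes, all of which bulk muscle can hold. In such a sample, fewer cells of a type and less RNA per cell cannot be told apart.

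The 5p strands are shown because they explain both the grouping of the family and the limits of the counts. RefSeq entries (GRCm38.p6) were found for the mature strands of all 6 members. Seed bases 2 to 8 are in capitals.
mmu-miR-181a-5p: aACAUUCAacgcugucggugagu
mmu-miR-181b-5p: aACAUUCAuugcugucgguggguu
mmu-miR-181c-5p: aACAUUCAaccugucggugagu
mmu-miR-181d-5p: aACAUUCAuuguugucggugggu

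The 6 hairpins gave 4 distinct 5p strands with 1 common seed, and the seed was on 0 other precursors among the 988 of the 1187 that matched a RefSeq mature strand by symbol. Positions are counted from 1 at the 5′ end of the strand named first. The miR-181b strand differed from the miR-181a strand by A9U, C10U and A21G and by 1 added base at its 3′ end. The miR-181c strand lacked G11 of the miR-181a strand and matched it at the other 22 positions. The miR-181d strand differed from that of miR-181b by C12U and by the absence of the last base. The miR-181a strand was the same in both of its hairpins, as was the miR-181b strand.

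The opposite 3p strands are shown because they set the copies apart. Seed bases are again in capitals.
mmu-miR-181a-1-3p: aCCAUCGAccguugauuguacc
mmu-miR-181a-2-3p: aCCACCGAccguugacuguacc
mmu-miR-181c-3p: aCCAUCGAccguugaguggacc
mmu-miR-181b-1-3p: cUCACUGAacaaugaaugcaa
mmu-miR-181b-2-3p: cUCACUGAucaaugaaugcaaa
mmu-miR-181d-3p: cCCACCGGgggaugaauguca

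The 3p strand of the mmu-mir-181a-2 hairpin differed from that of mmu-mir-181a-1 by U5C and U16C, and position 5 lies inside the seed. The 3p strands of mmu-mir-181a-1 and mmu-mir-181c shared their seed and differed by U16G and U19G. The 3p strand of mmu-mir-181b-2 differed from that of mmu-mir-181b-1 by A9U, outside the seed, and by 1 base at its end. The deposited counts are per hairpin and hold both strands together, so 5p and 3p levels were not measured separately.

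The miR-181a hairpins, whose counts rank among the highest of all precursors, are shown in full with both mature strands in capitals.
mmu-mir-181a-1: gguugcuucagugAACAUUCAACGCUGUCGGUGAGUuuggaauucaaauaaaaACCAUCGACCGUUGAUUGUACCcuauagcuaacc
mmu-mir-181a-2: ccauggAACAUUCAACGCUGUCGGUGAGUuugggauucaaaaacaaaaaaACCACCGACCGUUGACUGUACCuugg

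The 6 hairpins form 3 pairs in the mouse genome (mm10). On chromosome 1, mmu-mir-181a-1 (chr1:137966455-137966541, plus strand) lay 97 bases from mmu-mir-181b-1 (chr1:137966639-137966718). In GENCODE M21, both lie in introns of the noncoding transcript Gm4258 on the same strand, and A430106G13Rik, a long noncoding RNA gene, has an exon that holds all of mmu-mir-181b-1. That exon covers the last 11 of the 87 bases of mmu-mir-181a-1, and the intron of Gm26936 spans both hairpins on the other strand. On chromosome 2, mmu-mir-181a-2 (chr2:38852735-38852810, plus strand) lay 1019 bases from mmu-mir-181b-2 (chr2:38853830-38853918). Both lie in an intron of Nr6a1, the gene of an orphan nuclear receptor, but on the strand opposite to it, and mmu-mir-181b-2 also lies opposite an exon of Gm44144. On chromosome 8, mmu-mir-181c (chr8:84178873-84178961, minus strand) lay 85 bases from mmu-mir-181d (chr8:84178716-84178787). Both lie in an intron of Nanos3, a germ cell gene, on its own strand.

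**Figure D1:**
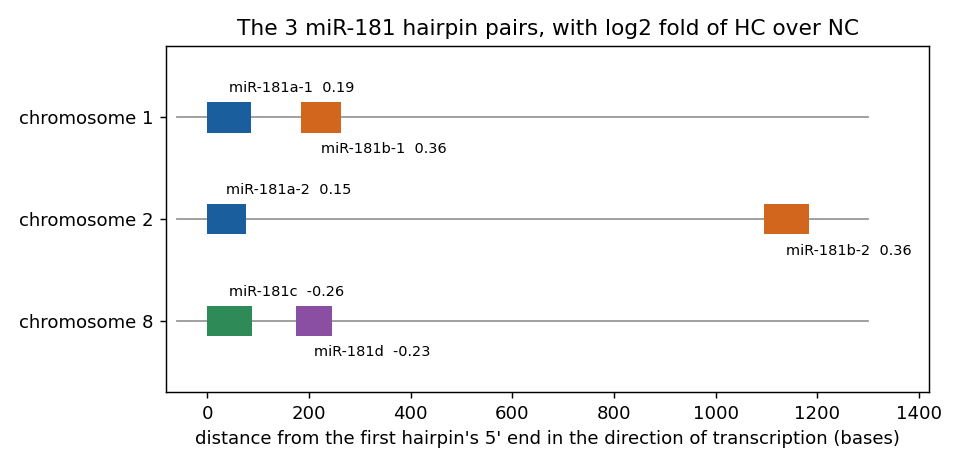
The 3 miR-181 hairpin pairs, drawn to scale as distance in bases from the 5′ end of the upstream hairpin, with the log2 fold of HC over NC beside each name. The chromosome 1 and 2 pairs have values from 0.15 to 0.36, and the chromosome 8 pair has -0.26 and -0.23.

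The HC library held 31198050 counts over all precursors and the NC library 43848576. Counts were scaled between libraries with TMM, a trimmed mean of log ratios that takes most precursors as unchanged, and are given as CPM, the count divided by the scaled library size and multiplied by 1000000. Of all precursors, 222 had a mean of at least 10 CPM over both libraries and were compared, the 6 miR-181 members among them. Intervals are nominal 95% intervals of counting error only and do not cover the spread between mice or preparations. Reads were not tagged by molecule and may copy each other, so the intervals may be too narrow even for counting error. For the labelled tissue, 9 precursors of skeletal muscle miRNAs were followed, all detected in both libraries. Markers of every other cell type followed were detected too, so detection alone does not mark the tissue. The 9 muscle precursors summed to 277821 CPM in HC and 323375 CPM in NC, with both copies of miR-133a and of miR-1a counted. The 9 precursors did not share a direction, with 4 higher and 5 lower in HC. mmu-mir-486a, the most abundant, was at 141556 CPM in HC and 187306 CPM in NC, while mmu-mir-1a-1 was at 1826 CPM in HC and 1320 CPM in NC. Markers of other cells were also present. The 2 erythrocyte precursors summed to 608.8 CPM in HC and 467.9 CPM in NC, the 4 leukocyte precursors to 2303 CPM in HC and 2298 CPM in NC, and the 7 epithelial precursors to 139.5 CPM in HC and 187.8 CPM in NC. The leukocyte sum is mostly miR-142a and covers members that differed. The lymphocyte miR-150 was at 141.6 CPM in HC and 237.6 CPM in NC, and the myeloid miR-223 at 340.3 CPM in HC and 250.9 CPM in NC. Endothelial miR-126a had 11407 CPM in HC and 11144 CPM in NC, and the 2 smooth muscle precursors summed to 69344 and 76571 CPM. The 6 neuronal precursors reached only 16.9 CPM in HC and 27.4 CPM in NC, and the liver miRNA miR-122 had 0.21 and 0.22 CPM. No marker was at 0 in either library. The part of these cell types in the miR-181 values was not tested.

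The miR-181 family made up 2.87% of all precursor counts in HC and 2.31% in NC. These totals hold the identical counts of mmu-mir-486a and mmu-mir-486b, 4626450 each in HC and 7839973 each in NC. The shares therefore depend on how shared reads were listed. On the TMM scale, the family sum was 1.13-fold higher in HC. In HC, miR-181a and miR-181b were higher than in NC, by 1.11-fold to 1.29-fold, and miR-181c and miR-181d lower, at 0.84 and 0.85 of their NC level. The 6 hairpins summed to 27392 CPM in HC and 24218 CPM in NC, a log2 fold of 0.18 (0.17 to 0.18). This sum is nearly all miR-181a and hides the lower values of the chromosome 8 pair.

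**Figure D2:**
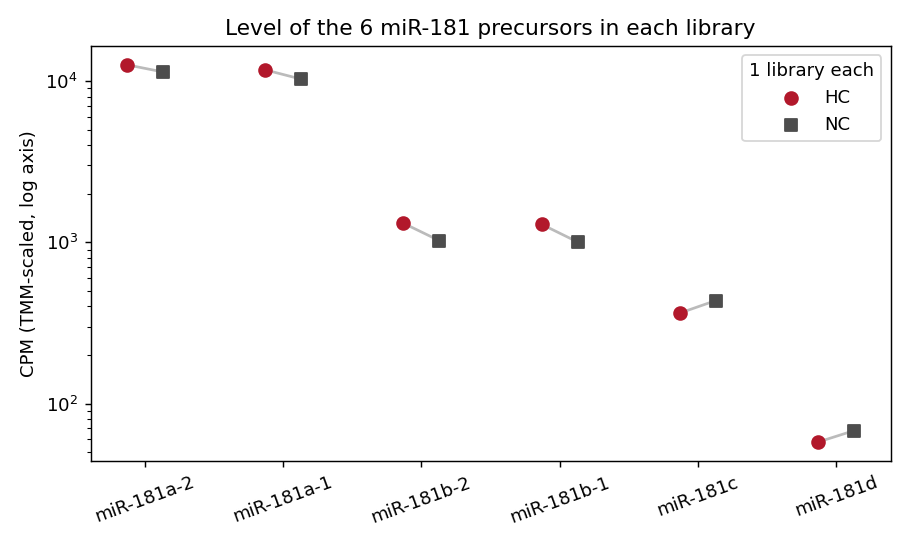
CPM of each miR-181 precursor on a log axis, with the HC library as a circle and the NC library as a square, 1 library each. The levels span from 57.7 CPM to 12623 CPM, and the lines slope down from HC to NC for the miR-181a and miR-181b hairpins and up for miR-181c and miR-181d.

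miR-181a was by far the most abundant. The hairpin mmu-mir-181a-2 had 412561 counts in HC and 477126 in NC, or 12623 CPM and 11399 CPM. It took rank 13 by level among all precursors in HC and rank 15 in NC. Its log2 fold was 0.15 (0.14 to 0.15). The other copy, mmu-mir-181a-1, had 383760 counts (11742 CPM) in HC and 430610 counts (10288 CPM) in NC, with a log2 fold of 0.19 (0.18 to 0.20). Each miR-181a hairpin was thus higher in the HC library, by 1.11-fold and 1.14-fold.

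miR-181b stood about an order of magnitude below miR-181a. mmu-mir-181b-1 had 42244 counts (1293 CPM) in HC and 42035 counts (1004 CPM) in NC. Its log2 fold of 0.36 (0.34 to 0.38) was the highest in the family. mmu-mir-181b-2 had 42902 counts (1313 CPM) in HC and 42840 counts (1024 CPM) in NC, with a log2 fold of 0.36 (0.34 to 0.38). Both copies were 1.28-fold to 1.29-fold higher in HC, and 20 of the 222 compared precursors had a higher fold than mmu-mir-181b-1.

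The chromosome 8 pair was lower in HC. mmu-mir-181c had 11899 counts (364.1 CPM) in HC and 18222 counts (435.3 CPM) in NC, a log2 fold of -0.26 (-0.29 to -0.22). mmu-mir-181d, the least abundant member, had 1886 counts (57.7 CPM) in HC and 2842 counts (67.9 CPM) in NC. Its log2 fold was -0.23 (-0.32 to -0.15), the widest interval in the family because of its low count. Among the compared precursors, 32 had a lower fold than mmu-mir-181c and 38 a lower fold than mmu-mir-181d.

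The order of levels was mmu-mir-181a-2, mmu-mir-181a-1, mmu-mir-181b-2, mmu-mir-181b-1, mmu-mir-181c and mmu-mir-181d in each library. With 1 library per group, the spread behind this order is unknown. The nearest neighbours in it were the miR-181b copies, at 1313 CPM for mmu-mir-181b-2 and 1293 CPM for mmu-mir-181b-1 in HC, and at 1024 CPM and 1004 CPM in NC.

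By their counting intervals, 4 of the 6 members were higher in HC, where 39.6% of all compared precursors were. The remaining 2 members were lower in HC, where 43.7% of all compared precursors were. At this depth the interval excluded equality for most compared precursors, so passing it says little about a member. The split over all compared precursors, 88 higher and 97 lower in HC with TMM, also moved with the scaling. With plain totals 135 of 222 were higher and 47 lower. With the denominators of the deposited scaled column 56 were higher and 135 lower, out of the 233 that passed the 10 CPM limit on that scale. None of the 6 members reached a 2-fold difference, which 1.35% of compared precursors did as higher in HC and 0.901% as lower. An absolute log2 fold at least as large as that of mmu-mir-181b-1 was found for 41 of the 222 precursors, itself included. The median over all compared precursors was 0.00, a value that TMM largely sets.

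**Figure D3:**
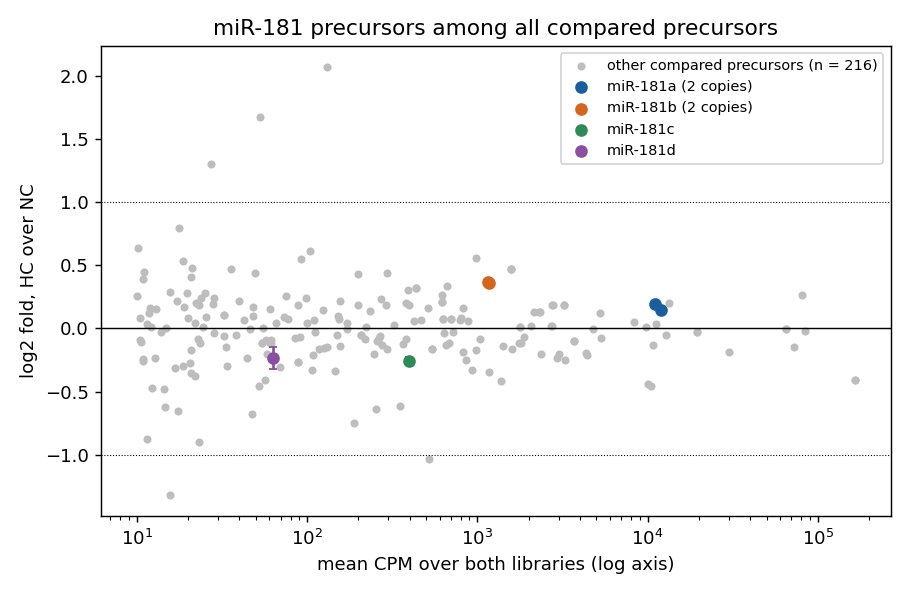
Log2 fold of HC over NC against mean CPM (log axis) for the 222 compared precursors, with miR-181 members in colour, bars for the 95% counting interval and dotted lines at 2-fold. The miR-181 members lie between -0.26 and 0.36, inside the cloud of the other compared precursors.

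Ratios between members need no scaling between libraries, so they show the change of composition within the family's listed counts directly. In HC, miR-181b took a larger share of the family and the chromosome 8 pair a smaller one. Of the family's counts, the miR-181b hairpins held 9.51% in HC, with an exact (Clopper-Pearson) interval of 9.45 to 9.57%, and 8.37% in NC, with an interval of 8.32 to 8.43%. miR-181c and miR-181d together held 1.54% in HC (1.51 to 1.57%) and 2.08% in NC (2.05 to 2.11%). The miR-181a hairpins held 88.9% in HC and 89.5% in NC.

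On chromosome 1, there were 9.08 counts of mmu-mir-181a-1 for each count of mmu-mir-181b-1 in HC and 10.2 in NC, a log2 ratio of the HC to the NC ratio of -0.17 (-0.19 to -0.15). On chromosome 2, there were 9.62 counts of mmu-mir-181a-2 for each of mmu-mir-181b-2 in HC and 11.1 in NC, a log2 ratio of -0.21 (-0.23 to -0.19). In each pair the miR-181b hairpin thus made up more of the counts in HC than in NC. On chromosome 8, by contrast, the ratio of mmu-mir-181c to mmu-mir-181d was 6.31 in HC and 6.41 in NC. The log2 ratio of -0.02 had an interval of -0.11 to 0.07, so a change between them was not detectable at this depth.

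For scale, 58 other pairs of compared precursors lay next to each other within 10000 bases. The absolute difference in log2 fold within those pairs had a median of 0.17 and quartiles of 0.07 and 0.35. It was larger than that of the chromosome 1 pair in 29 pairs, larger than that of the chromosome 2 pair in 25 and larger than that of the chromosome 8 pair in 51. The shifts between miR-181a and miR-181b on chromosomes 1 and 2 thus lay between the quartiles of these other pairs. As their copies may share reads, these shifts may not be separate measurements.

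The widest shift in composition was between miR-181b and the chromosome 8 pair. There were 3.55 counts of mmu-mir-181b-1 for each of mmu-mir-181c in HC and 2.31 in NC, a log2 ratio of 0.62 (0.58 to 0.66). Against mmu-mir-181d, whose 5p strand is the closest to that of miR-181b, the ratio was 22.4 in HC and 14.8 in NC, a log2 ratio of 0.60 (0.51 to 0.68). mmu-mir-181a-1 shifted against mmu-mir-181c by 0.45 (0.41 to 0.48), with ratios of 32.3 in HC and 23.6 in NC. Over all 15 pairs of members, the interval excluded 0 in 13 and held 0 in 2. Those 2 were mmu-mir-181c with mmu-mir-181d and the miR-181b copies with each other. Pairs that differ only in the copy named largely repeat each other. The share over pairs of other precursors was not computed, and at this depth such a count says little about the family.

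**Figure D4:**
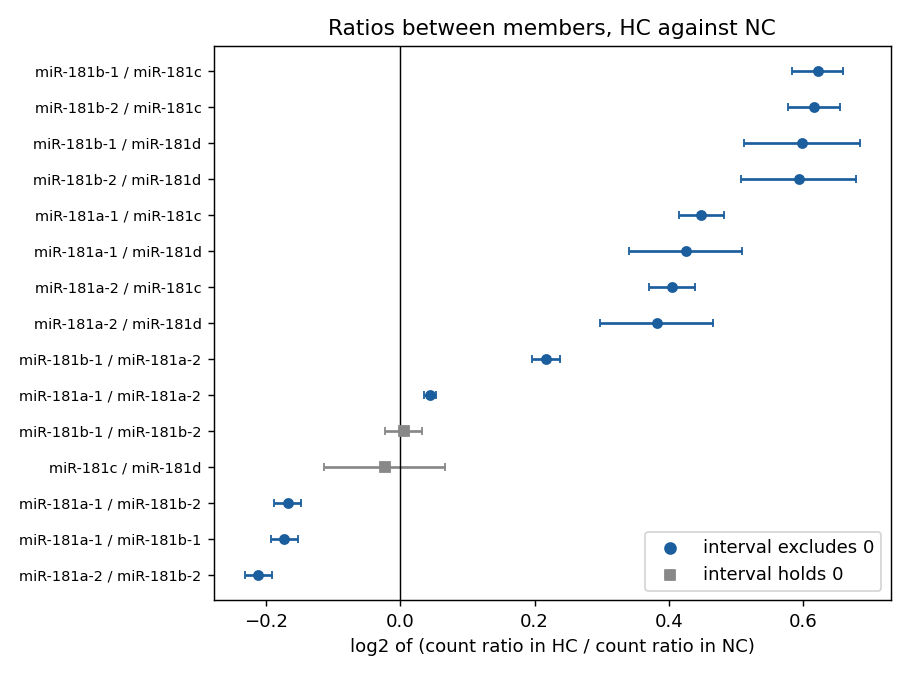
Log2 of the count ratio in HC over the count ratio in NC for all 15 pairs of miR-181 members, with 95% counting intervals. The pairs of miR-181b with miR-181c or miR-181d lie farthest from 0, from 0.59 to 0.62, and the squares mark the 2 pairs whose interval holds 0.

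The copies of one mature strand cannot be separated with certainty, because a read of a shared 5p strand matches both hairpins. How such reads were assigned is not stated in the labels or the files. The overlapping mmu-mir-486a and mmu-mir-486b were listed with identical counts, 4626450 each in HC and 7839973 each in NC. The copies mmu-mir-133a-1 and mmu-mir-133a-2 had 2128550 and 2127966 counts in HC. Such values would arise if shared reads were listed under each hairpin, which was not tested. The counts of mmu-mir-181b-1 were 98.5% of those of mmu-mir-181b-2 in HC and 98.1% in NC. For miR-181a, the smaller copy held 93.0% of the larger in HC and 90.3% in NC. Near-equal copies were common, but not universal. Of 21 other pairs of compared precursors whose names differ only in the copy number, 17 had a smaller member of at least 90% of the larger in both libraries. The least equal pair was mmu-mir-92a-1 and mmu-mir-92a-2, where the smaller held 7.70% of the larger in HC and 7.48% in NC.

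The copies of miR-181a were the less equal ones. mmu-mir-181a-2 exceeded mmu-mir-181a-1 by 28801 counts in HC and by 46516 in NC, or by 881.2 CPM and 1111 CPM. This excess was lower in HC, while each hairpin as a whole was higher there. The log2 ratio of mmu-mir-181a-1 to mmu-mir-181a-2 was accordingly 0.04 higher in HC (0.03 to 0.05). The hairpins differ in their 3p strands, loops and flanks, and which reads make up the excess was not tested. If shared reads were listed under both hairpins, the counting errors of the copies are not independent and this interval does not hold. The same sharing touches the family sum and the shares of the family, which count such reads again for the other copy. With 1 hairpin for each mature 5p strand, the log2 fold of the family was 0.15 (0.15 to 0.16).

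All members kept their direction under each of the 5 other scalings. Those scalings shifted every log2 fold by between -0.11 and 0.13. mmu-mir-181a-2 came closest to 0, at 0.03 with the authors' denominators, and ranged up to 0.28 with plain totals. mmu-mir-181b-1 ranged from 0.25 to 0.50, mmu-mir-181c from -0.37 to -0.12 and mmu-mir-181d from -0.35 to -0.10.

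**Figure D5:**
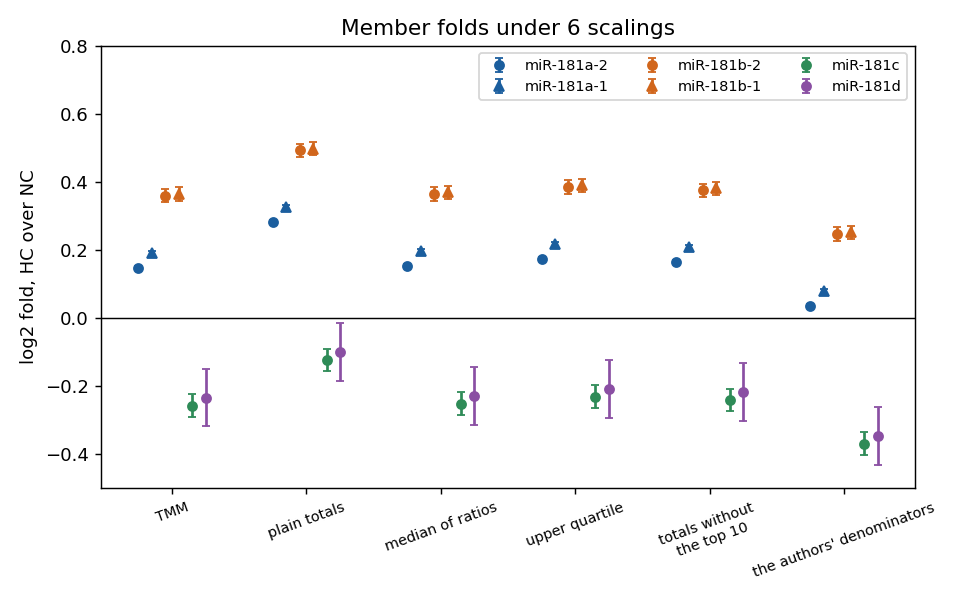
Log2 fold of HC over NC for each miR-181 member under 6 ways of scaling the libraries, with 95% counting intervals. The miR-181a and miR-181b hairpins stay above 0 and miR-181c and miR-181d below 0 in every column, while their distance from 0 moves.

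Precursors outside the family with the most similar levels were found by the distance between log2 CPM values over the 2 libraries. mmu-mir-126a, the precursor of the main endothelial miRNA, was the nearest to both miR-181a hairpins, at distances of 0.12 and 0.15. mmu-mir-434 was nearest to mmu-mir-181b-1 (0.37) and mmu-mir-25 to mmu-mir-181b-2 (0.39), although their own log2 folds were 0.56 and -0.08. mmu-mir-23a was nearest to mmu-mir-181c (0.16) and mmu-mir-872 to mmu-mir-181d (0.09). With 2 libraries this likeness is mainly one of level.

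Other miRNAs of the processes in which miR-181 acts had values on either side of 0. For the lists below, 39.6% of all compared precursors were higher in HC and 43.7% lower. The list counts include copies of one strand and say little by themselves about a process. Among 13 compared precursors of miRNAs that act on NF-kB and vascular inflammation, 5 were higher in HC and 6 lower, with a median log2 fold of -0.03. The endothelial miR-10a, which restrains NF-kB signalling, was 0.20, at 14333 CPM in HC and 12459 CPM in NC. miR-126a, which limits the adhesion molecule VCAM-1, was 0.03. miR-21a, induced in inflamed tissue, was -0.08, at 5210 CPM in HC and 5489 CPM in NC. miR-146b, which dampens Toll-like receptor signalling, was -0.41, at 1176 CPM in HC and 1566 CPM in NC. These directions are relative to TMM scaling, and values between -0.13 and 0.11 change sign with another scaling.

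Among 19 compared precursors of myoblast differentiation and regeneration, 8 were higher in HC and 10 lower, with a median of -0.01. miR-486a, which promotes growth signalling in muscle, was -0.40, and its counts cannot be separated from those of the overlapping miR-486b. The copies of miR-133a, a muscle-specific miRNA, were each -0.01, and mmu-mir-26a-1, a precursor of miR-26a, was -0.02. Among 11 compared precursors of lymphocyte development, 5 were higher and 3 lower, with a median of 0.01. mmu-mir-92a-1, from the miR-17-92 cluster, was -0.25, the copies of miR-16 were each 0.18 and the leukocyte miRNA miR-142a was 0.01. The lowest value of the list, chosen after its values were seen, was that of miR-150 at -0.75 (-0.80 to -0.70). No precursor of these 3 lists was 2-fold apart between HC and NC. Over all compared precursors, only 1.35% were 2-fold higher in HC and 0.901% 2-fold lower.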

How the data were processed

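Per the labels' protocols, RNA was prepared with Trizol and a miRvana kit and sequenced after TruSeq small RNA preparation. Per the submitters' processing notes, the tools were CASAVA 1.8.2, TopHat2 2.0.10 and HTSeq 0.5.4, with build mm10. The sources used here do not give the trimming, the mismatches allowed, the strand setting or the handling of multiply aligned reads. The authors deposited whole-number read counts for 1187 precursors, with 5 summary rows that were left out of library sizes. The largest of these was the counts outside all precursors. They made up 55.9% in HC and 44.1% in NC of their sum with the precursor counts, the other summary rows left out. The precursor counts in that sum may list shared reads more than once. The deposited column headed RPM was treated here as a signal that the authors had scaled. Its values equal the count divided by 27222821 in HC or by 32252170 in NC, and multiplied by 1000000. Those denominators are smaller than the precursor totals, and they served only as an alternative scaling.

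Effective library sizes came from TMM in edgeR 4.0.16 (R 4.3.3), without any edgeR test. The log2 fold has no pseudocount and an exact conditional binomial (Clopper-Pearson) 95% interval. Ratios of ratios have intervals from the delta method on log counts. Median-of-ratios factors came from DESeq2 1.42.0. Being higher or lower means an interval that excludes 0 at a mean of at least 10 CPM; the size rule adds a fold of at least 2. All 6 members were named, with the nearest precursor for each by level. Of each list, the 4 precursors with the highest mean CPM were named, with copies counted separately. miR-150 was added after its value was seen. Members and lists were chosen with earlier results of these data known. The calculation was tested on simulated counts drawn independently with counting error only. The simulated counts held no shared reads and no spread between mice, so the test does not cover these. Sequences are from RefSeq (GRCm38.p6) and host genes from GENCODE M21, both on the assembly of mm10.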

Additional observations from a re-analysis of the deposited data

Results flagged for a closer look

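Counts outside all miRNA precursors, which no comparison used, were set against their sum with the precursor counts. They made up 55.9% of that sum in HC and 44.1% in NC, so their share in HC was above that of the control library. Their relation to the miR-181 values was not tested.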

How the results depend on the processing

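The 30 log2 folds of single members under other scalings all kept their sign, and all 30 intervals excluded 0. Each scaling shifts every log2 fold by the same amount, so these are not 30 separate checks. The family log2 fold of 0.18 was 0.31 with plain totals, 0.18 with median-of-ratios factors, 0.20 with upper-quartile factors, 0.19 with totals without the 10 most abundant precursors, 0.065 with the authors' denominators and 0.15 with 1 precursor per mature sequence. By construction, the last setting also reduced the members higher in HC from 4 to 2. The log2 ratio of miR-181a to miR-181b was -0.17 with the other copies in place of -0.21, and that of miR-181a to miR-181c was 0.45 in place of 0.41. Of all compared precursors, 3 passed the 2-fold rule as higher in HC and 2 as lower. These numbers were 6 and 4 with totals without the 10 most abundant precursors, 8 and 5 with the filter at 1 CPM, and 20 and 15 with no filter, where more precursors are compared. With plain totals 1 was lower, as with the filter at 50 CPM. Depth limits mmu-mir-181d most. No paired analysis was possible because each group held 1 library.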
